A study of Mus musculus with 5 samples.

Results

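Genes that sense and repair DNA damage were compared between Prmt5 mutant and control lung airways of mouse embryos at E13.5. The set holds 35 genes, all found by symbol among the 19699 entries of the deposited table, and covers the checkpoint kinases, homologous recombination, the Fanconi anaemia pathway, end joining, single-strand break repair and mismatch repair. The RNA came from the main airway section, trachea with lung, of C57 mice, with 2 mutant libraries labelled Prmt5 knockdown and 3 control libraries labelled WT. The growth protocol and the design text describe a knockout in the lung epithelium, the design text names Shh next to Prmt5 in the mutant genotype without spelling out the alleles, and controls were littermates. The deletion is thus described as epithelial, while the RNA was of the whole piece. It is not stated if embryos were pooled or if replicates were separate embryos, so the p-values cover only the spread among these 5 libraries, part of which may be technical. Shh being part of the genotype, no difference can be read as that of Prmt5 alone.

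DNA breaks are sensed by the MRE11-RAD50-NBN complex and by the Ku heterodimer, which recruit the kinases ATM and DNA-PK, while ATR answers to single-stranded DNA at stalled replication forks. Breaks are then joined end to end or copied from the sister chromatid by homologous recombination, and crosslinks are released by the Fanconi anaemia proteins. Many of these genes are transcribed in cycling cells, which abound in the embryonic lung. PRMT5, which methylates arginines of histones and splicing proteins, has been linked in other tissues to DNA damage, to p53 activity and to the splicing of repair genes. Values per gene, as used here, do not show splicing.

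No gene of the set passed the test between mutants and controls. With limma on log2(FPKM + 1) and Benjamini-Hochberg adjustment over 12838 genes, 0 of 35 passed an adjusted p of 0.05 in either direction, where 2.36% of all genes tested did (0.989% higher and 1.37% lower in the mutants). FPKM counts sequenced fragments, scaled to the length of the gene and to the reads of the library. The smallest adjusted p of the set was 0.186, for Fanci, and the largest was 0.977, for Pms2. An unadjusted p under 0.05 was reached by 1 of 35 genes, against 18.9% of all genes tested. Voom on reads recovered from the FPKM steps called 0 of 35, where 4.67% of all genes passed. The median log2 change of the set was -0.01, beside -0.06 for all genes tested, with 17 genes above 0 and 18 below. Of all genes tested, 38.9% had a log2 change above 0. The median size of the change without its sign was 0.13 for the set and 0.16 for all genes tested.

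The size of change in RNA of the whole piece that the data leave room for was read from the 95% intervals, gene by gene. They do not bound a change within the epithelium alone, where the deletion is described. The interval of the log2 change lay between -1 and 1, a 2-fold change either way, for all 35 genes, with bounds from -0.60 for Xrcc3 to 0.76 for Fanci. For 31 of the 35 it also lay inside a 1.5-fold change. On the same scale, 11241 of the 12838 genes tested had an interval inside 2-fold. A pseudocount of 0.1, which understates low genes less, left all 35 intervals inside 2-fold and 20 inside 1.5-fold, and voom left 35 and 21. With the share of male RNA as a covariate 35 and 9 were inside, and with values rescaled to TPM, in which length-scaled values sum to the same total in every library, 0 and 0 were. With TPM the median log2 change of all genes was -0.58, and the lowest bound was -2.16, for Xrcc3. The 17 members with log2 changes above 0 in the FPKM as deposited were below 0 with TPM. With TPM computed without the entry Gm23935, 35 and 21 intervals were inside. The library totals that scale the FPKM, recovered from the FPKM steps and not given by the labels, were 15652503 to 18682463 reads. The members had from 599 recovered reads over the 5 libraries, for Rad51b, to 20567, for Parp1. The count of Rad51b is less certain, since its annotated length did not give whole reads.

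**Figure D1:**
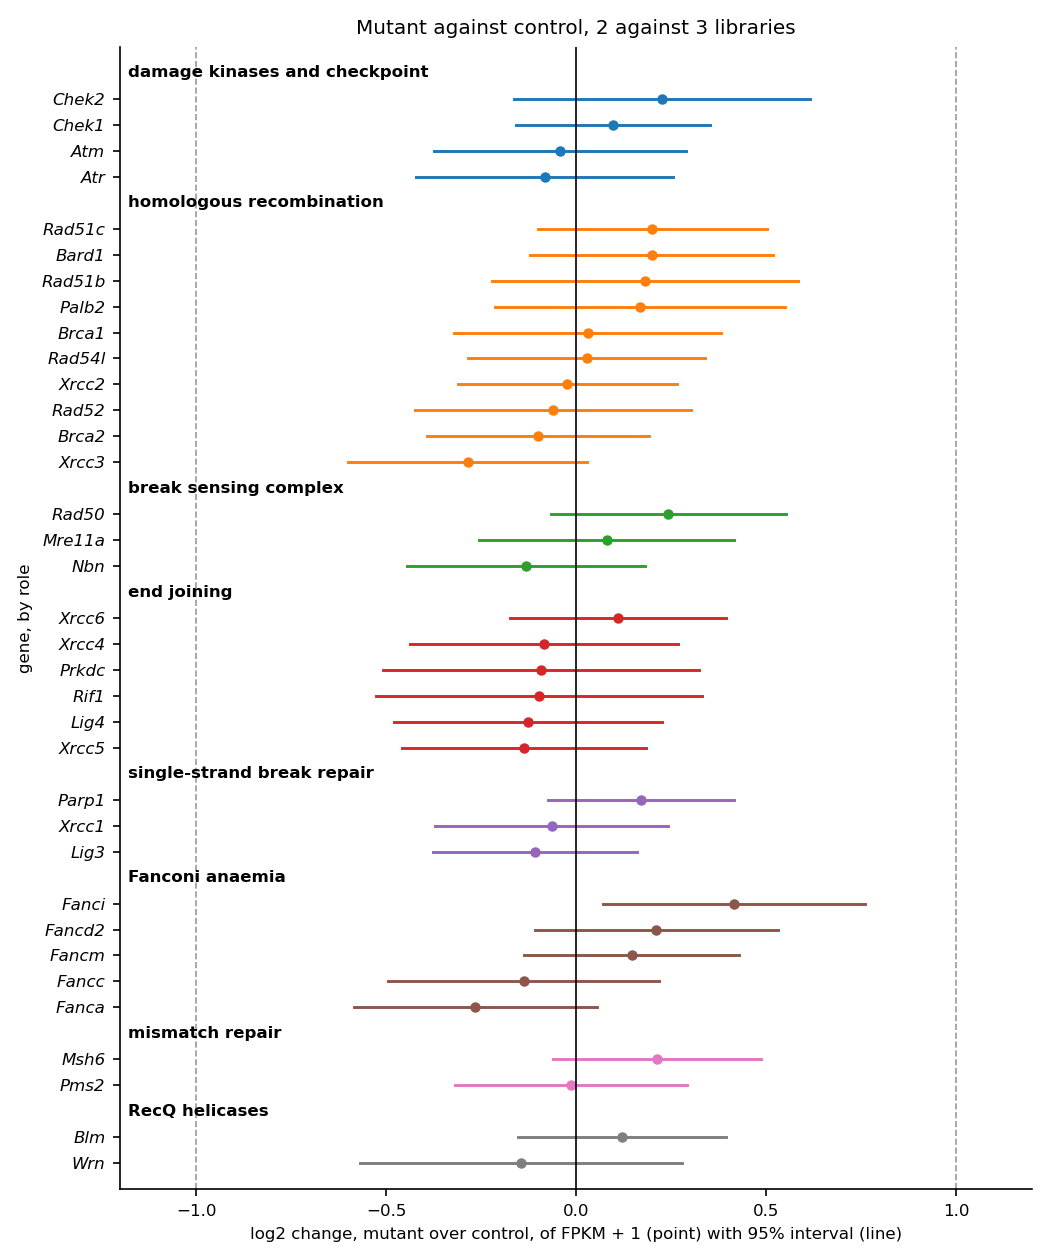
Log2 change of FPKM + 1 (x axis, mutant over control) for each of the 35 genes (y axis, grouped by role); points are limma estimates, lines are 95% intervals and dashed lines mark 2-fold. Every interval lies inside the dashed lines, and that of Fanci, from 0.07 to 0.76, is the 1 that leaves out 0.

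Values per library are given in the order of the replicate numbers. Prmt5, the targeted gene, stood at 23.7 and 20.1 FPKM in mutant tissue, against 28.7, 26.4 and 25.8 FPKM in control tissue (log2 change -0.29, SE 0.12, limma adjusted p = 0.234). Both mutants lay below all 3 controls, but the difference did not pass, so the level of Prmt5 in the whole piece is a weak check of the labels. Cdkn1a, which encodes the p53-induced cell cycle inhibitor p21, was at 48.9 and 42.4 FPKM in mutant tissue, against 13.3, 9.68 and 11.4 FPKM in control tissue. It rose 3.98-fold (log2 change 1.91, SE 0.15, limma adjusted p = 0.00618), in the same libraries in which no gene of the repair set passed. The call of Cdkn1a was lost with TPM (log2 change 1.39, limma adjusted p = 0.673) and without mutant replicate 1 or 2 (limma adjusted p = 0.0621 and 0.0640), and it passed under the other 14 alternatives.

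Levels of the set spanned a wide range within each library. The mean over the 5 libraries ran from 1.77 FPKM for Palb2 to 46.1 FPKM for Parp1, with a median of 4.82 FPKM, against 8.08 FPKM for all genes tested. Means were 10 FPKM or more for 8 genes, 5 to 10 FPKM for 8 and under 5 FPKM for 19. The abundant genes were Parp1, Msh6, Xrcc5, Nbn, Xrcc1, Xrcc6, Rif1 and Chek1. All 35 passed the filter of 1 FPKM in at least 2 libraries, and no value of any member was under 1.38 FPKM, so the filter removed none. The highest library exceeded the lowest by 1.07-fold for Xrcc2 and by 1.74-fold for Fanci, with the other members between.

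**Figure D2:**
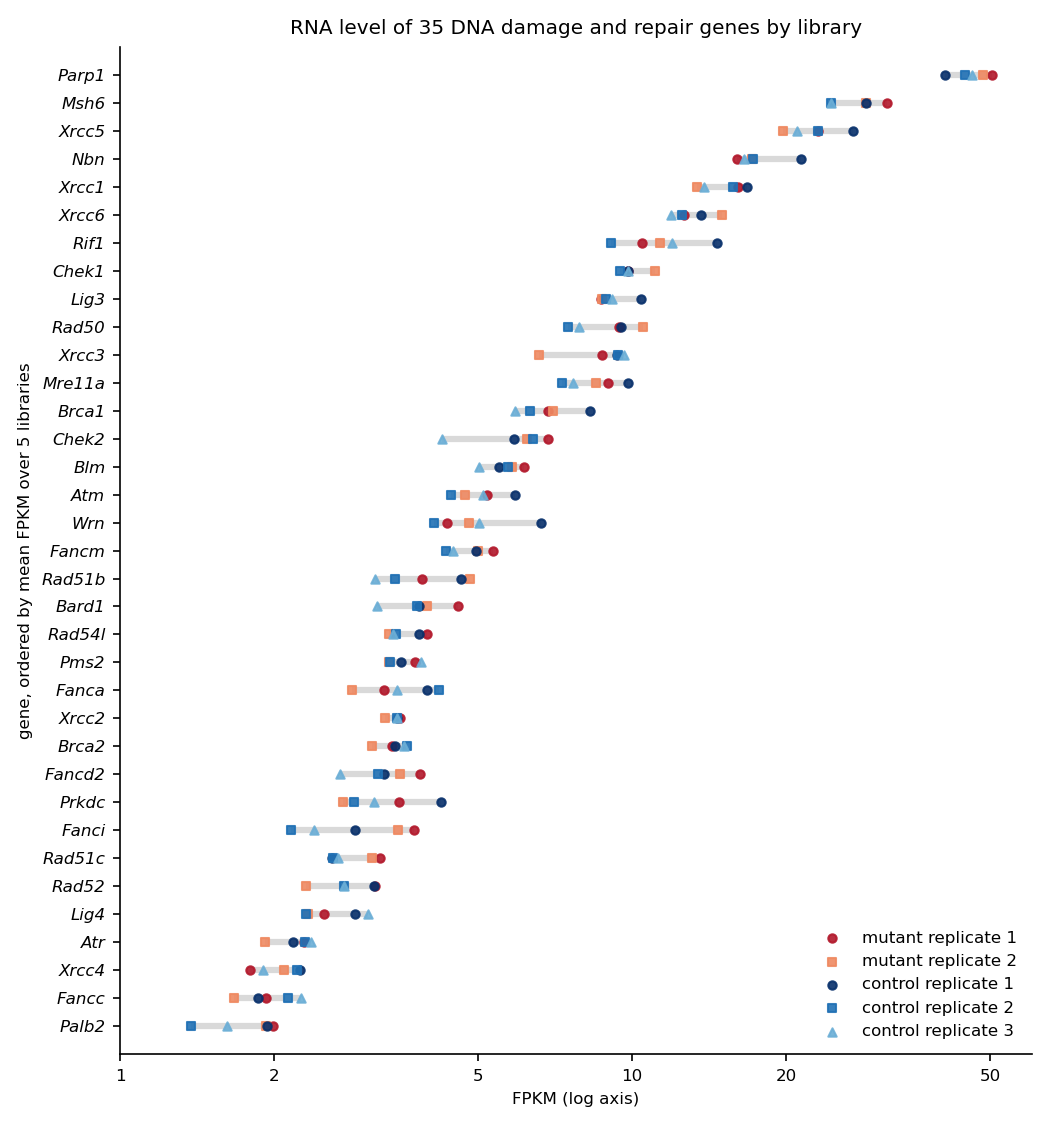
FPKM (x axis, log scale) of the 35 genes (y axis, ordered by mean) in each of 5 libraries; symbols stand for libraries and grey bars run from the lowest to the highest. Red mutant and blue control symbols lie close together, within 1.74-fold for every gene, while the means run from 1.77 to 46.1 FPKM.

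Of the checkpoint kinases, Chek2 had the smallest p. This kinase carries the signal from ATM to p53 and other targets. Chek2 was at 6.85 and 6.24 FPKM in mutant tissue, against 5.87, 6.40 and 4.26 FPKM in control tissue. The groups overlapped, and control replicate 3 was the low library (log2 change 0.23, 95% interval -0.16 to 0.62, limma adjusted p = 0.525). Chek1, the kinase downstream of ATR, was at 9.82 and 11.1 FPKM against 9.82, 9.47 and 9.82 FPKM (log2 change 0.10). Its mutants counted as above the controls, but replicate 1 of the mutants equalled 2 of the controls to 3 digits. The apical kinases Atm and Atr had log2 changes of -0.04 and -0.08, at 4.43 to 5.92 and 1.92 to 2.36 FPKM over the 5 libraries.

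Among the 10 genes of homologous recombination, 6 had log2 changes above 0 and 4 below, with a median of 0.03. The share above 0 was 38.9% over all genes tested. Xrcc3, which encodes a paralog of the strand exchange recombinase (chromosome 12, 111803192 to 111813873, GRCm38), had the smallest p. It was at 8.75 and 6.57 FPKM in mutant tissue, against 9.36, 9.39 and 9.66 FPKM in control tissue. Both mutants lay below all 3 controls, which differed little among themselves, and mutant replicate 2 was the lowest (log2 change -0.29, 95% interval -0.60 to 0.03, limma adjusted p = 0.309). The entry overlaps Klc1, and reads that the 2 genes share cannot be told apart since the use of strand is not given. The same limit holds for other members that overlap a listed gene, among them Msh6 (Fbxo11), Xrcc6 (Desi1), Lig3 (Rffl) and Fancd2 (Fancd2os). Other paralogs of the recombinase had log2 changes of 0.18 for Rad51b, 0.20 for Rad51c and -0.02 for Xrcc2. Rad51c lay at 3.21 and 3.10 FPKM in the mutants, above the controls at 2.59, 2.60 and 2.67 FPKM (adjusted p = 0.464).

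The breast cancer genes Brca1 and Brca2, whose products prepare the break and load the recombinase, had log2 changes of 0.03 and -0.10. Brca1 was at 6.86 and 7.02 FPKM in the mutants, inside the control range of 5.92 to 8.26 FPKM. Brca2 was at 3.40 and 3.10 FPKM, below controls at 3.45, 3.63 and 3.59 FPKM. Bard1, the partner of BRCA1 in a ubiquitin ligase, and Palb2, which bridges BRCA1 and BRCA2, had log2 changes of 0.20 and 0.17. The mediator Rad52 and the translocase gene Rad54l were at -0.06 and 0.03. Over the pathway, the mutants lay above the controls for Bard1 and Rad51c and below for Brca2 and Xrcc3, and the groups overlapped for 6 genes. Over all genes tested the groups did not overlap for 37.6% (13.2% with the mutants above and 24.4% below), so 4 of 10 is near the background.

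None of the 3 genes of the break sensing complex passed, and their log2 changes differed in sign. Rad50, its ATPase subunit, was at 9.41 and 10.5 FPKM in mutant tissue, against 9.50, 7.51 and 7.87 FPKM in control tissue. Control replicate 1 fell between the mutants, so the groups overlapped (log2 change 0.24, 95% interval -0.07 to 0.55, limma adjusted p = 0.378). The nuclease gene Mre11a and the adaptor gene Nbn had log2 changes of 0.08 and -0.13. Ratios of FPKM within a library are free of library scaling. The ratio of Nbn to Rad50 was 1.71 and 1.63 in the mutants and 2.25, 2.29 and 2.10 in the controls, so the mutants lay below. Of 11 such ratios between partner genes, 4 had groups that did not overlap (36.4%). The share was 37.6% for single genes over the whole table, but those values carry library scaling and no share over other ratios was computed. The exact permutation test of any one ratio cannot go below p = 0.1 with 2 against 3 libraries. Beside Nbn to Rad50, the 4 were Nbn to Mre11a, Mre11a to Rad50 and Fanci to Fancd2. The ratios among Nbn, Mre11a and Rad50 depend on each other.

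Of the 6 genes of end joining, 5 had log2 changes below 0, down to -0.14, and none passed. Over all genes tested, 7850 of 12838 were also below 0. Xrcc5, which encodes the larger Ku subunit, was at 23.1 and 19.7 FPKM in mutant tissue, against 27.0, 23.1 and 21.0 FPKM in control tissue. The groups overlapped (log2 change -0.14, 95% interval -0.46 to 0.18, limma adjusted p = 0.657). Its partner Xrcc6 was at 12.6 and 15.0 FPKM against 13.6, 12.5 and 11.9 FPKM (log2 change 0.11). Xrcc5 thus exceeded Xrcc6 by 1.32-fold to 1.98-fold in FPKM, least in mutant replicate 2. Prkdc, the catalytic subunit of DNA-PK, the ligase gene Lig4 and its scaffold Xrcc4 had log2 changes of -0.09, -0.13 and -0.09. Rif1, which restrains the cutting back of DNA ends, was at -0.10, and its controls ran from 9.10 to 14.7 FPKM.

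In single-strand break repair, Parp1 was the most abundant gene of the set. It encodes the sensor that marks broken DNA with poly(ADP-ribose). Parp1 was at 50.5 and 48.5 FPKM in mutant tissue, against 40.8, 44.7 and 46.1 FPKM in control tissue, with 3862 to 4446 reads per library. Both mutants lay above all 3 controls, by 12.8% in the mean (log2 change 0.17, 95% interval -0.07 to 0.42, limma adjusted p = 0.436). The scaffold gene Xrcc1 and the ligase gene Lig3 had log2 changes of -0.06 and -0.11, and the mutants of Lig3, at 8.68 and 8.74 FPKM, lay below the lowest control at 8.89 FPKM.

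The Fanconi anaemia genes held the member nearest to the threshold. Fanci (chromosome 7, 79391929 to 79450264, GRCm38) encodes the partner of FANCD2 in the pair that is ubiquitinated and clamped on DNA at crosslinks. Mutant replicates gave 3.75 and 3.50 FPKM (341 and 316 reads), and control replicates 2.87, 2.16 and 2.40 FPKM (310, 203 and 252 reads). Both mutants lay above all 3 controls (1.46-fold in the mean, log2 change 0.42, SE 0.15, unadjusted p = 0.0242). It did not pass with limma (adjusted p = 0.186), and its adjusted p was 0.087 to 0.985 over the 16 alternatives that tested it, with a log2 change of -0.02 in TPM and 0.33 to 0.55 in the others. The entry overlaps Polg. Fancd2, the other member of that pair, had a log2 change of 0.21, at 3.85 and 3.52 FPKM against 3.28, 3.18 and 2.69 FPKM (adjusted p = 0.47).

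Fanca, of the core complex that ubiquitinates that pair, had a log2 change below 0. It was at 3.27 and 2.84 FPKM in mutant tissue, against 3.98, 4.19 and 3.48 FPKM in control tissue, and both mutants lay below (log2 change -0.27, 95% interval -0.59 to 0.05, limma adjusted p = 0.352). Fancc, of the same complex, was at -0.14, with overlapping groups, and the translocase gene Fancm at 0.15, with the mutants above. Fanca overlaps Zfp276.

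Msh6, a subunit of the sensor of mismatched bases, was at 31.5 and 28.6 FPKM in mutant tissue, against 28.6, 24.5 and 24.4 FPKM in control tissue. Control replicate 1 reached the lower mutant (log2 change 0.21, 95% interval -0.06 to 0.49, limma adjusted p = 0.380). Pms2, a subunit of the endonuclease that follows it, was at -0.01. Of the RecQ helicases, which unwind joined DNA strands, Blm was at 6.14 and 5.82 FPKM against 5.51, 5.73 and 5.02 FPKM (log2 change 0.12, 95% interval -0.15 to 0.40, limma adjusted p = 0.642). Wrn, the Werner syndrome gene, was at -0.14, and control replicate 1 was its high library, at 6.63 FPKM where control replicates 2 and 3 had 4.10 and 5.03 FPKM.

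Over the set, the groups did not overlap for 12 of 35 genes (34.3%), where 37.6% of all genes tested showed this. The mutants were above for 8 (Bard1, Blm, Chek1, Fancd2, Fanci, Fancm, Parp1 and Rad51c), or 22.9%, against 13.2% of all genes. They were below for 4 (Brca2, Fanca, Lig3 and Xrcc3), or 11.4%, against 24.4%. Mutant replicate 2 ran low over the whole table, with a median log2 difference of -0.12 from the control mean, and was the lowest library for 41.1% of all genes tested. After median ratio scaling, which evens this out, the mutants were above for 11 members and below for 3, where 19.3% and 20.1% of all genes were, and 0 of 35 passed.

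Control replicate 1 was the highest library for 11 of 35 genes (31.4%), close to its 28.6% of all genes tested, among them Wrn, Rif1, Prkdc, Nbn, Xrcc5 and Brca1. Mutant replicate 1 was the highest for 13 (37.1%, against 23.1% of all genes tested), mutant replicate 2 for 4 (11.4%, against 10.9%), control replicate 2 for 2 (5.71%, against 11.5%) and control replicate 3 for 5 (14.3%, against 25.9%). The median log2 difference of the set from the control mean was 0.05 and -0.05 in mutant replicates 1 and 2, and 0.09, -0.03 and -0.05 in control replicates 1, 2 and 3. Both mutants fell inside the range of the controls. Without control replicate 1 the median log2 change of the set was 0.05, and 0 of 35 genes passed.

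Cycling cell markers were read beside the set, since many repair genes are expressed with the cell cycle. Of 20 S phase genes 0 passed and of 20 mitosis genes 0 passed, with 3 and 1 at an unadjusted p under 0.05, against 18.9% of all genes tested. The median log2 changes of these lists were 0.13 and 0.11, beside -0.06 for all genes tested. Of the 20 genes in each, 14 and 17 had log2 changes above 0, where 38.9% of all genes tested did. Gins1, of the replicative helicase, and Ccne2, a cyclin of S phase entry, had the smallest p of the S phase list, at log2 changes of 0.42 and -0.31 (limma adjusted p = 0.193 and 0.217). Cdk1, the mitotic kinase, and Cdc20, an activator of the anaphase ligase, led the mitosis list, at 0.33 and 0.29 (limma adjusted p = 0.253 and 0.303). By library, the median of the S phase list was 0.06 and 0.18 in the mutants and 0.04, 0.06 and -0.13 in the controls. That of the mitosis list was 0.06 and 0.14 in the mutants and 0.11, 0.04 and -0.14 in the controls. Mutant replicate 2 was thus the highest library for both lists, and control replicate 3 the lowest. Over all genes tested, mutant replicate 2 was at -0.12. The part of cycling cells in the values of the repair genes was not tested.

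**Figure D3:**
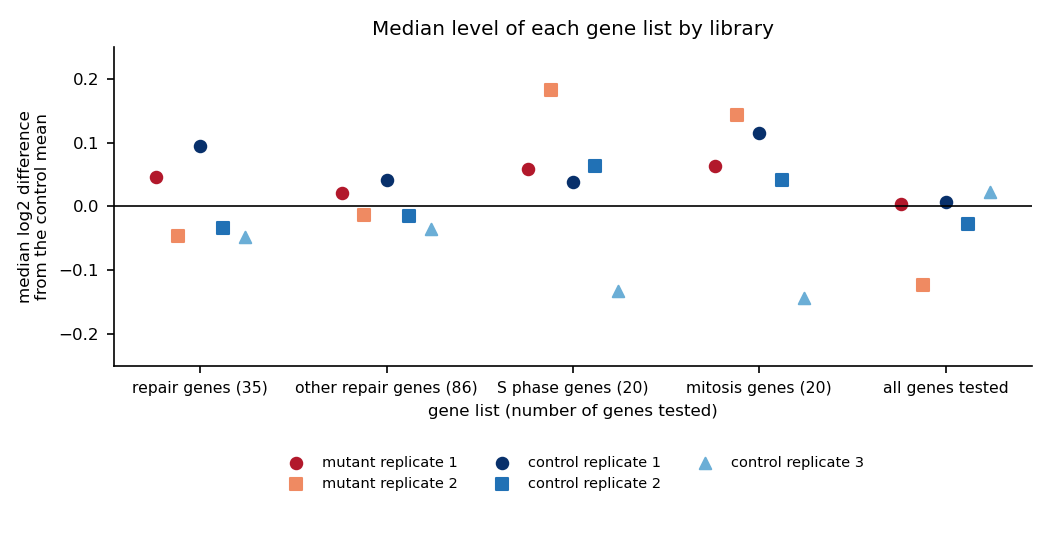
Median log2 difference of FPKM + 1 from the control mean (y axis) for each gene list (x axis), with 1 symbol per library. For the 35 repair genes the mutants, at 0.05 and -0.05, lie inside the controls, at -0.05 to 0.09. For the S phase and mitosis lists, mutant replicate 2 is the highest and control replicate 3 the lowest.

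The genes were not chosen for their promoters, which were searched for short words of factors that act on cell cycle genes. RefSeq promoters (GRCm38.p6, 250 bases before to 50 after a start) matched 28 of the 35 genes, 32 promoters in all. The words TTTCCCGC, TTTGGCGC, TTTCGCGC and TTTGCCGC of the E2F factors, which switch on genes for S phase, were searched on both strands. They were found in 7 of the 32 promoters (21.9%), of 6 genes, in 7 of 17 promoters of the S phase genes (41.2%) and in 2.26% of all 32851 promoters of that length. Promoters of other repair genes and of mitosis genes held them in 8.64% and 5.88%. All promoters here are those of 27025 genes, where 12838 genes were tested, and no share over the tested genes was computed. The word CCAAT was in 59.4% of the members' promoters and 37.4% of all, and the word TTTGAA, common in promoters of mitosis genes, in 6.25% and 17.9%. CCAAT was not particular to the set, at 54.3% for other repair genes, 70.6% for S phase genes and 88.2% for mitosis genes. Windows around the E2F word are shown for 4 of the 6 genes, those in which the window ends before the RefSeq start. These genes were picked because the search found the word, so that they share it was fixed by the choice. Capitals mark the word, and each line runs 5′ to 3′ on the strand of its gene.
Bard1 (chr1:71103148-71103207, minus strand): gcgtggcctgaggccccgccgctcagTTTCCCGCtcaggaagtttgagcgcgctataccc
Brca2 (chr5:150522427-150522486, plus strand): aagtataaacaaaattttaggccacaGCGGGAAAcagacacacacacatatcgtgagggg
Chek2 (chr5:110839805-110839864, plus strand): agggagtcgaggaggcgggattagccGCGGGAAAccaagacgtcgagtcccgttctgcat
Xrcc6 (chr15:82016297-82016356, plus strand): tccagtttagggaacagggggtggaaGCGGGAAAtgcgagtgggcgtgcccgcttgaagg
The other 2 genes were Msh6 and Rad51c. The log2 changes were 0.20 for Bard1, -0.10 for Brca2, 0.23 for Chek2, 0.21 for Msh6, 0.20 for Rad51c and 0.11 for Xrcc6, and 0 of the 6 passed. A match describes the letters only and shows no binding.

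Many genes of the set share a start region with a neighbour on the opposite strand. In the GENCODE M21 annotation 16 of 35 (45.7%) had such a head-to-head partner with its start within 1000 bases, against 15.3% of the 12585 genes tested that had a position. The known pairs of Atm with Npat, Brca1 with Nbr1 and Prkdc with Mcm4, a subunit of the replicative helicase, were among them, with starts 307, 194 and 466 bases apart. Of the partners, 14 were tested and 0 passed, at log2 changes of -0.37 for Purg, beside Wrn, to 0.36 for Hscb, beside Chek2. In 8 of the 14 pairs both genes had the same sign. Among these, Mre11a overlaps Ankrd49 and Xrcc4 overlaps Tmem167, so reads may be shared within those pairs. Levels within a pair differed, with Fancd2 at a mean of 3.30 and Emc3, 30 bases away, at 22.5 FPKM, and Palb2 at 1.77 and Dctn5 at 34.3 FPKM. Across the 14 pairs Pearson's r of the log2 changes was 0.43, a description only, since both genes of a pair were read in the same 5 libraries.

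**Figure D4:**
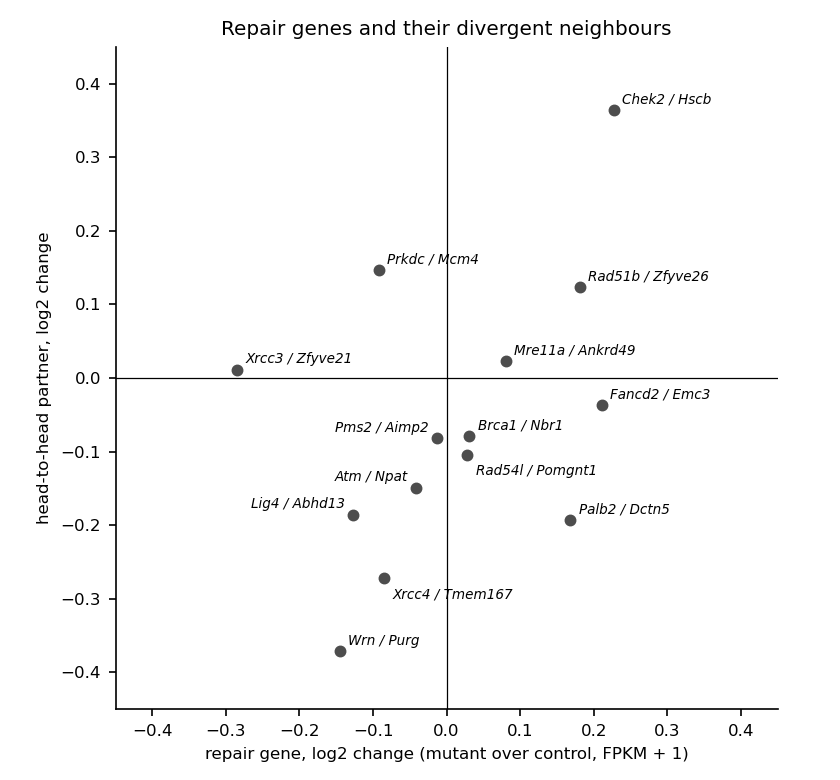
Log2 change of FPKM + 1 in mutants over controls for 14 repair genes (x axis) and for the gene that starts head to head with each (y axis). Points lie within -0.37 and 0.36 on both axes, and in 8 of 14 pairs the signs match. Mre11a overlaps Ankrd49, and Xrcc4 overlaps Tmem167.

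Within the set, the log2 change was set beside gene size and level. Across the 35 genes Pearson's r with log2 exon length, which ran from 2533 to 23629 bases, was -0.13, and with the log2 mean FPKM it was 0.04. These values are across genes that share the same libraries and are given with no test.

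Further repair genes gave a similar picture. Of 87 others listed, 86 were tested and 0 passed with limma, with a median log2 change of 0.00. An unadjusted p under 0.05 was reached by 5 of the 86, against 18.9% of all genes tested. Rev1, which encodes a scaffold polymerase for copying past damaged bases, had the smallest p. It was at 9.86 and 7.82 FPKM in mutant tissue, against 5.52, 5.24 and 6.30 FPKM in control tissue, so both mutants lay above (1.55-fold in the mean, log2 change 0.55, SE 0.14, limma adjusted p = 0.0894). It passed with median ratio scaling, quantile normalization and voom (limma adjusted p = 0.0449, 0.0439 and 0.0466; up to 0.949, with TPM, over the 17 alternatives), and its entry overlaps Eif5b. Ercc5, which encodes a nuclease of nucleotide excision repair, was at 12.1 and 8.99 FPKM against 6.97, 5.44 and 7.24 FPKM (log2 change 0.61, SE 0.17, limma adjusted p = 0.109). Recql, a RecQ helicase gene, and Apex1, the endonuclease at sites of lost bases, had log2 changes of -0.34 and 0.31 (limma adjusted p = 0.212 and 0.221). Of Kat5, Ruvbl1, Ruvbl2, Cdk12 and Cdk13, regulators of the repair response or of its transcripts, 0 of 5 passed, at log2 changes of -0.13 to 0.13.

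RNA of some cell type markers and of Y-linked genes differed between the mutant and control libraries. Summed FPKM of 8 skeletal muscle markers was 80.9 to 160 in the mutants and 262 to 687 in the controls, with 5 of 7 tested lower. It was 271 to 274 against 263 to 674 for 10 epithelial markers (1 lower), with control replicate 1 the highest. Cartilage (36.3 to 42.2 against 55.7 to 79.0, with 2 of 3 tested lower) and neural markers (34.2 to 45.9 against 59.0 to 80.1, with 2 of 6 lower) were also lower. The sum of 10 mesenchymal markers was 1548 to 1802 in the mutants and 1756 to 2234 in the controls, so the groups overlapped with the mutants lower on average, although 3 of the 10 passed as higher. Endothelial, macrophage and red blood cell markers overlapped, with 0 called. Of the markers, 0 were at 0 in every library. The summed level of 4 Y-linked genes, relative to the highest library, was 1 and 0.86 in the mutants and 0.73, 0.60 and 0.14 in the controls, so sex and genotype cannot be told apart in full. In whole tissue, fewer cells of a type and less RNA per cell cannot be told apart, and the part of these differences in the values of the repair genes was not tested.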

How the data were processed

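RNA of the airway section was purified with an RNeasy kit and made into libraries with a SMARTER mRNA-Seq kit, per the labels' protocols. The labels also carry a protocol for fat cell culture, which does not describe these samples. The authors deposited 1 table of FPKM values for 2 mutant and 3 control libraries, a unit given by the name of the table. GRCm38 (mm10) is named as the genome build in the submitters' processing notes. Not given in the sources used here: aligner, counter, annotation, strand.

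The FPKM as deposited were tested with limma 3.58.1 in R 4.3.3 (linear fits with trended empirical Bayes variances, two-sided) as log2(FPKM + 1), with all 5 libraries, no covariate, and a filter of at least 1 FPKM in 2 or more libraries. Benjamini-Hochberg adjustment ran over the 12838 genes tested, with a threshold of 0.05. Reads were recovered from the steps of the FPKM values: 73.9% of 18893 entries with 1 symbol match gave whole reads in all libraries, within 1e-06, at the exon length of GENCODE M21. For the others, 9 members included, the smallest length that gives whole reads was taken unless the annotation favoured a multiple, so their reads, and those of Rad51b and Fancc above all, are less certain. Library totals were recovered from the FPKM too, and 97.2% to 97.3% of those reads lay in listed genes. The fit was tested on simulated counts with known changes.

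Every member is named; values per library are given for members with an unadjusted p under 0.05 and groups that do not overlap, and for the smallest p of each role, and for some others chosen after their values were seen. Of other repair genes, S phase and mitosis genes, those with the smallest p are named. The members and lists were chosen with earlier results of these data known, and no test over a list is given. Alternatives were another pseudocount, filter, scaling, variance model, voom, a covariate for male RNA (summed level of 4 Y-linked genes), a replicate block, and each library left out.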

Additional observations from a re-analysis of the deposited data

How the results depend on the processing

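None of the 17 alternatives called any of the 35 repair genes, in 577 tests of a member. The smallest adjusted p was 0.087, for Fanci with quantile normalization. The filter of 5 FPKM left 17 members. The sign of a member's log2 change, none of which was called, differed from the one reported in 55 of those tests, 17 of them with TPM. The count over all genes, 303, was 69 with no filter on low values, 97 with TPM, 600 with voom and 55 with the covariate for male RNA, and 4 to 284 with 1 library left out, lowest without mutant replicate 1 (4) and mutant replicate 2 (11). The split of 127 higher and 176 lower was 148 and 147 with median ratio scaling, 133 and 115 with quantile normalization, 40 and 29 with no filter, and 17 and 80 with TPM. The median log2 change of the repair genes was 0.10 with quantile normalization and -0.51 with TPM, where that of all genes was 0.01 and -0.58, -0.08 with TPM without the transcript Gm23935, and -0.05 to 0.05 with 1 library left out. Other repair genes had 1 call (Rev1) with median ratio scaling, quantile normalization and voom. The replicate block gave 259 genes, 0 members and an adjusted p of 0.376 for Fanci. Same-numbered libraries deviated together with correlations of -0.07 and 0.02, so the number gives no sign of pairing. With 1 mutant left, that library is assumed to vary like the controls.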
